A study of Mus musculus with 12 samples.

Results

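Solute carriers are the membrane proteins, named Slc in the mouse with a family number, a letter and a member number, that move ions, nutrients, metals and metabolites across the plasma membrane and the membranes of organelles. The genes described here are those of the expression table whose symbols follow that pattern, without *Slc15a4* and without pseudogenes, and with a mean of at least 5 TMM-scaled CPM over the 12 libraries. CPM is a count divided by library size, and TMM, the trimmed mean of M values, is the scaling applied to those sizes. All levels below are in this unit. Of 172 symbols that fit the pattern, 143 reached that level and 29 did not, out of 11264 genes in the table. The 143 members belong to 38 families, and 139 of them encode carriers. The other 4 (*Slc4a1ap*, *Slc7a6os*, *Slc9a3r1* and *Slc36a3os*) are named after a carrier gene without being carriers. Just inside the threshold were *Slc19a1* at 5.06, *Slc35d1* at 5.10 and *Slc44a1* at 5.48, and just outside it were *Slc20a2* at 4.83, *Slc17a5* at 4.81 and *Slc25a26* at 4.69.

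The cells were type 1 conventional dendritic cells (cDC1s), which take up dead cells and present their antigens to CD8+ T cells, sorted as CD103+ CD24+ CD11b- cells from B16F10 melanomas on day 13 of tumor growth. They came from *Clec9a* gfp/gfp mice given FL, *Clec9a* gfp/gfp mice given control plasmid, WT mice given FL and WT mice given control plasmid, with 3 libraries in each group. FL is a plasmid encoding Flt3L, the growth factor of dendritic cells, and control is the empty plasmid. Either one was injected hydrodynamically 1 day before the tumor cells. *Clec9a* gfp/gfp mice carry gfp knocked into both alleles of *Clec9a* and lack DNGR-1, the receptor for dead cells that the gene encodes. They had been backcrossed to C57BL/6, the strain of the WT mice. Mice were 7 to 10 weeks old and matched for sex, and each library pooled the cells of 2 to 3 mice with a tumor on both sides, over 3 separate experiments. FL thus reached the cells through the host, not as a treatment of sorted cells.

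Amino acid carriers such as *Slc7a5* and *Slc1a5* feed protein synthesis and nutrient sensing, and mitochondrial carriers of family 25 join the matrix to the cytosol. Ion exchangers set the pH and volume of the cell and of its endosomes, and zinc carriers load or empty the secretory pathway. Dendritic cells need both acid endosomes, where antigen is cut, and a supply of nutrients during activation.

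Effective library sizes ran between 3.06 M and 25.9 M counts, the smallest being *Clec9a* gfp/gfp control 3 and the next WT control 3 and WT control 2 at 14.4 M and 14.5 M. *Clec9a* itself stood at 1.36, 0.269 and 0.789 in *Clec9a* gfp/gfp FL libraries and 0.51, 1.31 and 10.9 in *Clec9a* gfp/gfp control libraries, against 328 to 388 in WT FL and 288 to 371 in WT control libraries. It separated the genotypes in every library, although *Clec9a* gfp/gfp control 3 held more of it than the other knock-in libraries. Of 20 markers of cDC1s, which include *Clec9a*, 19 were measured. Their summed level was 22510 to 25090 in *Clec9a* gfp/gfp FL and 22270 to 27920 in *Clec9a* gfp/gfp control libraries. In WT it was 23570 to 26240 with FL and 22690 to 27600 with control. Of the 19, 3 were called lower and 0 higher in *Clec9a* gfp/gfp FL against WT control, beside 9.85% and 12.8% of all genes. With FL averaged over both genotypes 2 were lower and 1 was higher, beside 7.85% and 9.6% of all genes. Of 22 macrophage and monocyte markers 17 were measured, with sums of 1763 to 2179 in *Clec9a* gfp/gfp FL, 1449 to 1838 in *Clec9a* gfp/gfp control, 1585 to 1902 in WT FL and 1813 to 2508 in WT control libraries. The genes of the CD3 chains that define T cells were not among the genes tested. On the first principal component of all genes, *Clec9a* gfp/gfp FL 3 lay at −46.3, WT control 1 at 50 and WT control 3 at 54.9, apart from the other 9 libraries at −27.3 to 11.9. Counts of calls that rest on them are also given with these 3 libraries left out.

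Per kilobase of exon, the members ranged between 0.376 and 521 TMM-scaled CPM, around a median of 5.44, against a median of 5.08 for all genes tested. The highest was *Slc25a5*, the mitochondrial ADP/ATP translocase, at 521, and *Slc25a4*, its paralog, was at 104, after *Slc8b1*, the mitochondrial sodium/calcium exchanger, at 131. *Slc46a3*, a lysosomal carrier, followed at 87.8, *Slc3a2*, the heavy chain that brings several amino acid carriers to the cell surface, at 71.6, and *Slc35c2* and *Slc35b1*, which supply the Golgi apparatus and endoplasmic reticulum, at 67.3 and 65.0. In the other classes the highest were *Slc31a2* for copper at 54.8, *Slc39a7* for zinc at 46.3, *Slc50a1* and *Slc2a1* for sugars at 24.8 and 24.2, and the phosphate carrier *Slc20a1* at 7.13. *Slc2a1* is the widely expressed glucose carrier. All these levels are per kilobase of exon union in GENCODE models, which may be longer than the transcripts the cells used.

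For the comparison of FL with control in *Clec9a* gfp/gfp cDC1s, which asks what Flt3L changed in dendritic cells without DNGR-1, 9 members passed the test. Of the 143, 3 rose (*Slc4a8*, *Slc44a1* and *Slc16a6*) and 6 fell (*Slc25a1*, *Slc25a32*, *Slc1a5*, *Slc7a5*, *Slc30a5* and *Slc9a7*). *Slc44a1* is a member only through its level in the *Clec9a* gfp/gfp FL libraries. The share of all 11255 genes tested that was called was 2.01% higher and 3.45% lower, and among the members it was 2.1% and 4.2%, which are shares near those of all genes. The members' median log2 fold change was −0.11 and that of all genes 0.01. A gene was called at a Benjamini-Hochberg adjusted p under 0.1 in limma on log2(value + 1), and log2 fold changes are on that scale.

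The promoter windows of 4 of these 9 genes are shown to set members that moved in opposite directions side by side. They were read from the RefSeq table of GRCm38.p6. Each is the 250 bases before the annotated start, 5′ to 3′ on the gene's strand, with matches to the motifs named below in capitals. *Slc4a8* and *Slc44a1* rose with FL in *Clec9a* gfp/gfp cDC1s, and *Slc25a1* and *Slc30a5* fell.
Slc4a8, chr15:100761497-100761746, plus strand: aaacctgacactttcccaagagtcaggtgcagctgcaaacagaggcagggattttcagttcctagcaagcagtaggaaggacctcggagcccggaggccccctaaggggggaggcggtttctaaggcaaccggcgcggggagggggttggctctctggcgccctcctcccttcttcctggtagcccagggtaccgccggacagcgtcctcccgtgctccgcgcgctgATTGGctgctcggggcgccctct
Slc44a1, chr4:53440163-53440412, plus strand: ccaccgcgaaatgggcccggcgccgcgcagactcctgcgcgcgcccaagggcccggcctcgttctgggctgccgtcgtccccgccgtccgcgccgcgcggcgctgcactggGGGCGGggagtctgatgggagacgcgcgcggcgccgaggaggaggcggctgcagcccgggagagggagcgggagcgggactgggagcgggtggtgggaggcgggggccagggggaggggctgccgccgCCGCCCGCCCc
Slc25a1, chr16:17928220-17928469, minus strand: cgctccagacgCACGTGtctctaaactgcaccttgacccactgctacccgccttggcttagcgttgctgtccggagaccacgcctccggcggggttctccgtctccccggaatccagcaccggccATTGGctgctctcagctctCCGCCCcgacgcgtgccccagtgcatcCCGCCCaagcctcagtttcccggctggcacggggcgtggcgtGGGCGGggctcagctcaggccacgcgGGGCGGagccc
Slc30a5, chr13:100833428-100833677, minus strand: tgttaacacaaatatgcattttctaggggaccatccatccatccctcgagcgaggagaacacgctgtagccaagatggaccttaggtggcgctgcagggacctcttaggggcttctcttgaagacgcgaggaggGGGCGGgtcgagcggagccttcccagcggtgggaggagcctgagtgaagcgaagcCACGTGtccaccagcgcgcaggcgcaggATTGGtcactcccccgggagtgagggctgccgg
The motifs searched on both strands were the E-box CACGTG, the GC box GGGCGG, the CCAAT box CCAAT, the AP-1 site TGANTCA, the CRE TGACGTCA and the TATA box TATAAA, and neighboring GC boxes can share bases. The window of *Slc25a1* held 1 E-box, 1 CCAAT box and 4 GC boxes, and that of *Slc30a5* held 1 of each. The window of *Slc4a8* held 1 CCAAT box. That of *Slc44a1* held 3 GC boxes with no E-box or CCAAT box, as did that of *Slc9a7*, which fell. Windows were found for 110 of the 143 members. Among these, 17 (15.5%) held an E-box, 76 (69.1%) a GC box and 6 (5.45%) a TATA box, against 10.1%, 64.1% and 7.45% of 8434 tested genes with a window and 6.86%, 35.4% and 14.3% of all 27025 genes with a window. These are matches of letters only, and no binding was measured.

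*Slc4a8* (chromosome 15, 100761747 to 100823968, GRCm38), a sodium-driven chloride/bicarbonate exchanger that loads bicarbonate into the cell, stood at 81.9, 64.0 and 91.9 in *Clec9a* gfp/gfp FL libraries, against 22.1, 36.7 and 23.99 in *Clec9a* gfp/gfp control libraries. In WT it was 44.4, 38.4 and 47.4 with FL, against 17.2, 33.97 and 30.5 with control. All FL libraries lay above all control libraries of their genotype, and the 3 *Clec9a* gfp/gfp FL libraries lay above the other 9. The gene rose by a log2 fold change of 1.51 ± 0.27 (SE, n = 3 each) in *Clec9a* gfp/gfp cDC1s, with a limma adjusted p of 0.0124. In WT cDC1s its log2 fold change was 0.70 ± 0.27, with an adjusted p of 0.15. The difference between these was not called in the limma interaction (0.80, adjusted p = 0.55).

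*Slc25a1* (chromosome 16, 17925223 to 17928219), which carries citrate out of mitochondria for lipid synthesis, was the reverse case. It stood at 29.9, 40.2 and 45.97 in *Clec9a* gfp/gfp FL libraries, against 75.9, 95.5 and 76.9 in *Clec9a* gfp/gfp control libraries. In WT it was 66.3, 75.2 and 55.3 with FL, against 73.6, 65.9 and 77.8 with control. The *Clec9a* gfp/gfp FL libraries were the 3 lowest of the 12, and the WT groups overlapped. The gene fell in *Clec9a* gfp/gfp cDC1s (log2 fold change −1.09 ± 0.21, limma adjusted p = 0.015) and had −0.15 ± 0.21 in WT cDC1s (adjusted p = 0.70). Its interaction, −0.94, had the smallest p of any member and an adjusted p of 0.45, so no difference between genotypes was called. *Slc4a8* and *Slc25a1* were the only members whose calls in this comparison held in all 12 fits that left out 1 library and in all 10 other settings tried.

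**Figure D1:**
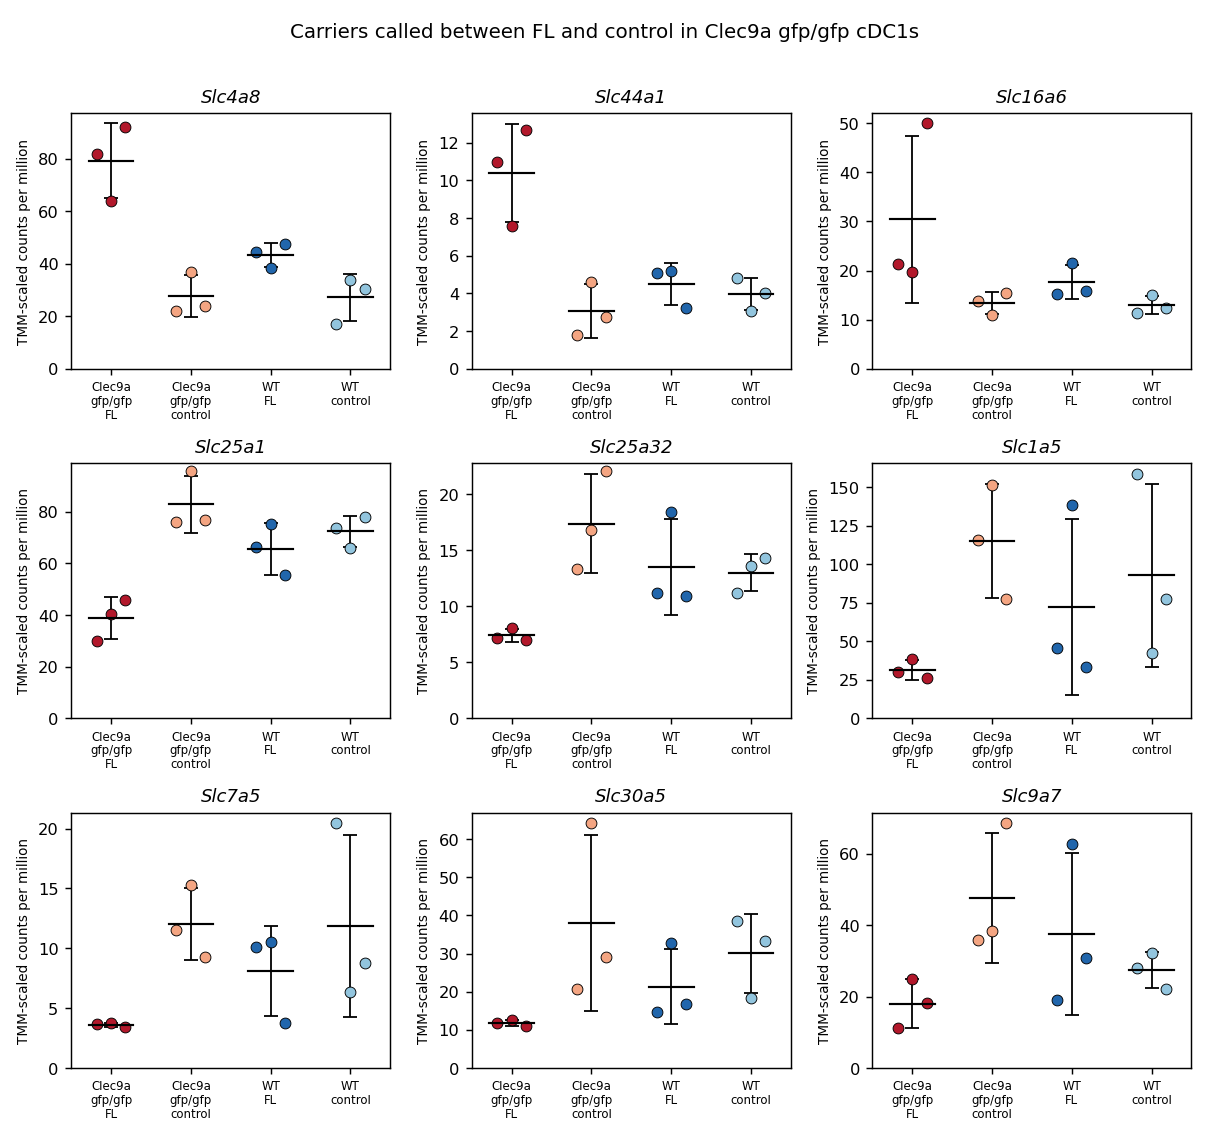
TMM-scaled CPM of the 9 carrier genes called between FL and control in *Clec9a* gfp/gfp cDC1s, 1 point per library, with the mean (line) and SD (bar) of 3 libraries in each of the 4 groups. The *Clec9a* gfp/gfp FL libraries of Slc4a8 sit between 64.0 and 91.9, above the other 9, and those of Slc25a1 between 29.9 and 45.97, below the other 9.

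*Slc44a1*, a choline carrier of the plasma membrane and mitochondria, was low in all groups but stood at 10.97, 7.6 and 12.6 in *Clec9a* gfp/gfp FL libraries, against 1.8, 4.6 and 2.8 in *Clec9a* gfp/gfp control libraries. WT libraries held 5.1, 5.2 and 3.2 with FL, against 4.8, 3.1 and 4.0 with control. With a mean of 5.48, *Slc44a1* passed the level of 5 only through the *Clec9a* gfp/gfp FL libraries. Its results in comparisons that use those libraries are therefore not independent of the rule for members. *Slc44a1* rose in *Clec9a* gfp/gfp cDC1s (log2 fold change 1.52 ± 0.34, limma adjusted p = 0.0251) and had 0.14 ± 0.34 in WT, with an interaction of 1.38 (adjusted p = 0.45). Its adjusted p was 0.11 when *Clec9a* gfp/gfp FL 1 was left out and 0.152 when FL 3 was. *Slc16a6*, a monocarboxylate carrier family member that exports the ketone body β-hydroxybutyrate from liver in zebrafish, was at 21.4, 19.8 and 50.04 in *Clec9a* gfp/gfp FL libraries, against 13.8, 10.95 and 15.5 in *Clec9a* gfp/gfp control libraries. The last FL library was more than 2 times the other FL libraries, and the log2 fold change of 1.01 ± 0.31 (limma adjusted p = 0.0988) became 0.60 without it, with an adjusted p of 0.471. *Slc16a6* also shares 1052 exon bases with *Amz2* on the opposite strand, and these libraries do not record strand.

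Both called amino acid carriers fell. *Slc1a5*, the sodium-dependent glutamine and neutral amino acid carrier, stood at 30.3, 38.8 and 26.03 in *Clec9a* gfp/gfp FL libraries, against 115.7, 151.8 and 77.8 in *Clec9a* gfp/gfp control libraries. Its log2 fold change of −1.79 ± 0.46 was the largest in size of any member in this comparison (limma adjusted p = 0.0485). WT libraries ranged widely, at 45.6, 138.4 and 33.7 with FL, against 158.8, 42.8 and 77.7 with control. *Slc7a5*, the large neutral amino acid carrier LAT1, stood at 3.6, 3.8 and 3.5 in *Clec9a* gfp/gfp FL libraries, against 11.5, 15.3 and 9.3 in *Clec9a* gfp/gfp control libraries (−1.47 ± 0.40, limma adjusted p = 0.0613). In WT it was 10.1, 10.5 and 3.8 with FL, against 20.5, 6.3 and 8.8 with control, and the groups overlapped. In WT cDC1s *Slc1a5* had −0.43 and *Slc7a5* −0.44, neither called.

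*Slc3a2*, the partner heavy chain of *Slc7a5*, was not called, at a log2 fold change of 0.25 (adjusted p = 0.65) in *Clec9a* gfp/gfp cDC1s. The amino acid class of 20 members had 0 higher and 2 lower, with a median of −0.23, in the cells without DNGR-1, and 0 called in WT. The median was −0.08 without *Clec9a* gfp/gfp FL 3. Both calls were lost when *Clec9a* gfp/gfp FL 1 was left out (adjusted p = 0.141 for *Slc1a5* and 0.16 for *Slc7a5*), and likewise for FL 3 (0.218 and 0.22) and control 2 (0.194 and 0.226) of that genotype. The call of *Slc7a5* was also lost without *Clec9a* gfp/gfp FL 2 and without each of the other *Clec9a* gfp/gfp control libraries.

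Among 19 measured of 24 listed genes of the amino acid response, the program that ATF4 drives when amino acids are short, none rose with FL in *Clec9a* gfp/gfp cDC1s and 2 fell, with a median of −0.27 against 0.01 for all genes. These 2 were *Gars*, the glycyl-tRNA synthetase (−2.35, limma adjusted p = 0.011), and *Psat1*, of serine synthesis (−0.86, adjusted p = 0.048). In WT cDC1s 1 of the 19 fell and 0 rose, with a median of −0.37, against −0.01 for all genes. Of all genes 3.45% were called lower in *Clec9a* gfp/gfp, 1.19% in WT and 7.85% in the average over both genotypes. With FL averaged over both genotypes 5 of the 19 fell and 0 rose, adding *Phgdh*, *Shmt2* and *Eif4ebp1*, and 0 of the 19 were called without the 3 libraries that lay apart. Of 23 measured of 26 listed genes of amino acid sensing at the lysosome, *Rragc* fell in *Clec9a* gfp/gfp cDC1s (−1.54, limma adjusted p = 0.035) and none rose, with a median of 0.13. In WT cDC1s 2 of the 23 rose and 0 fell, and averaged over both genotypes 4 rose and 1 fell. Of all genes 5.37% were called higher in WT and 9.6% in the average. Without the 3 libraries that lay apart, 1 of the 19 response genes was called in *Clec9a* gfp/gfp cDC1s, and 0 of the 23 sensing genes were called in these 3 comparisons.

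*Slc25a32*, which brings folate or FAD into mitochondria, stood at 7.2, 8.1 and 7.0 in *Clec9a* gfp/gfp FL libraries, against 13.3, 16.8 and 22.03 in *Clec9a* gfp/gfp control libraries. The groups did not overlap, and the gene fell (−1.10 ± 0.28, limma adjusted p = 0.0407), while WT had 0.02. *Slc30a5*, which loads zinc into the early secretory pathway, was at 11.9, 12.5 and 11.1 in *Clec9a* gfp/gfp FL libraries, against 20.8, 64.3 and 29.2 in *Clec9a* gfp/gfp control libraries (−1.45 ± 0.38, limma adjusted p = 0.053). The FL libraries lay close together and the control libraries did not. *Slc9a7*, a sodium or potassium/proton exchanger of the trans-Golgi network, was at 11.1, 24.8 and 18.3 in *Clec9a* gfp/gfp FL libraries, against 35.96, 38.5 and 68.7 in *Clec9a* gfp/gfp control libraries (−1.36 ± 0.38, limma adjusted p = 0.0662). It had 0.30 in WT cDC1s and an interaction of −1.65, the largest in size of any member, at an adjusted p of 0.45.

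Of the 14 zinc members *Slc30a5* alone was called in *Clec9a* gfp/gfp cDC1s, and of the 29 mitochondrial carriers *Slc25a1* and *Slc25a32*. The calls of *Slc25a32*, *Slc30a5* and *Slc9a7* were each lost without *Clec9a* gfp/gfp FL 1 (adjusted p = 0.136, 0.144 and 0.255), FL 3 (0.173, 0.209 and 0.209), control 2 (0.125, 0.241 and 0.128) or control 3 (0.172, 0.119 and 0.262). Leaving out *Clec9a* gfp/gfp FL 1 left 1 member higher and 1 lower, as did leaving out *Clec9a* gfp/gfp FL 3 or all 3 libraries that lay apart. There were 2 higher and 1 lower without *Clec9a* gfp/gfp control 2, and 2 and 2 without *Clec9a* gfp/gfp control 3. With upper-quartile scaling the members' count stayed at 3 and 6, but all genes divided into 301 higher and 318 lower, against 226 and 388 with TMM.

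Subunits and partners of carriers were read beside them. In this comparison 2.01% of all genes were called higher and 3.45% lower. Of 16 measured of 17 listed partner genes, none rose with FL in *Clec9a* gfp/gfp cDC1s and 3 fell. They included *Letm1* (−1.71, limma adjusted p = 0.019), a mitochondrial ion exchange protein, and *Ostm1* (−1.02, adjusted p = 0.03), which pairs with the lysosomal chloride/proton exchanger ClC-7. Without the 3 libraries that lay apart, 1 of the 16 was called. Of 31 measured of 42 listed transporters with other symbols, only *Mfsd14b* was called there (−1.65, limma adjusted p = 0.012). Glucose and lactate enzymes gave 1 higher and 2 lower of 22. These were *Pfkfb3*, an activator of glycolysis (1.21, limma adjusted p = 0.03), and *Pdk1* and *Pdk3*, kinases that restrain pyruvate dehydrogenase (−1.15, adjusted p = 0.062, and −0.87, adjusted p = 0.037), all lost without the 3 libraries. Metal handling genes gave 0 of 15.

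Markers of other cell states moved with FL in *Clec9a* gfp/gfp cDC1s. Of 18 mature dendritic cell markers 7 rose with FL and none fell, beside 2.01% of all genes called higher and 3.45% lower. Their summed level was 7388 to 16250 in *Clec9a* gfp/gfp FL (median 7832), against 4018 to 5682 in *Clec9a* gfp/gfp control libraries. Of the 17 macrophage and monocyte markers 4 rose, and of 10 measured of 13 cDC2 markers 2 rose. The sums of the cDC2 markers were 168 to 323 in *Clec9a* gfp/gfp FL (median 171) against 74.4 to 110 in *Clec9a* gfp/gfp control libraries. Without the 3 libraries that lay apart 4 of the 18 mature, 2 of the 17 macrophage and monocyte and 2 of the 10 cDC2 markers rose. In WT cDC1s 4 of the mature markers rose with FL, with sums of 5723 to 8361 in WT FL against 3069 to 5317 in WT control libraries, and 0 of the other markers of these lists were called. Averaged over both genotypes, 12 of the mature markers rose, as did 4 of the macrophage and monocyte markers (2 fell) and 4 of the cDC2 markers (1 fell). Of all genes 5.37% were called higher and 1.19% lower in WT, and 9.6% and 7.85% in the average. *Clec9a* gfp/gfp FL against WT control gave 12.8% and 9.85% of all genes. Set against WT control, *Clec9a* gfp/gfp FL cDC1s had 14 mature markers higher, with 3 higher and 2 lower macrophage and monocyte markers and 4 higher and 2 lower cDC2 markers. Without the 3 libraries, 0 were called in the WT comparison and against WT control, and 1 mature, 3 macrophage and monocyte and 1 cDC2 marker rose in the average. Of 6 measured of 13 fibroblast and endothelial markers 0 were called with FL in either genotype. Their median was 0.805 in *Clec9a* gfp/gfp, with sums of 55.3 to 127 with FL against 26.6 to 71.8 with control. In the average 1 rose, and 2 were higher in *Clec9a* gfp/gfp FL than in WT control. Of 3 measured T cell and 8 measured melanoma markers 0 were called in any comparison. The part of these markers in the carriers' changes was not tested. In bulk libraries, fewer cells of a type and less RNA per cell cannot be told apart.

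For FL against control in WT cDC1s, which asks what Flt3L changed with DNGR-1 present, 9 members were called, and 8 of them rose. Of these 8, 5 belonged to the ion class (protons, sodium, calcium, chloride and bicarbonate), among them *Slc4a2*, *Slc12a4*, *Slc12a7* and *Slc26a2*. The others were *Slc39a9*, *Slc35e2* and *Slc25a15*, and the single member that fell was *Slc25a5*. Of all genes 5.37% were called higher and 1.19% lower, against 5.59% and 0.699% of the members. With libraries scaled by column totals, 15 members were called higher and 0 lower, and all genes 960 and 37 against 604 and 134, while the median of all genes moved to 0.11. With the replicate number as a block, 4 members were called higher and 0 lower, beside 589 and 96 of all genes.

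*Slc4a2*, a chloride/bicarbonate exchanger that removes base, was at 34.2, 43.2 and 46.4 in WT FL libraries, against 21.9, 26.7 and 11.9 in WT control libraries (log2 fold change 1.06 ± 0.29, limma adjusted p = 0.0664). All WT FL libraries exceeded all WT control libraries, and WT control 3 was the lowest of the 12. *Slc4a2* shares 1141 exon bases with *Fastk* on the opposite strand. The potassium/chloride cotransporters *Slc12a4* and *Slc12a7*, which let salt out when a cell swells, were 13.2, 26.2 and 22.99, against 9.3, 13.3 and 6.6 for *Slc12a4*, and 46.8, 49.1 and 61.2, against 34.3, 37.01 and 13.5 for *Slc12a7*. The groups overlapped slightly for *Slc12a4* and did not for *Slc12a7*. *Slc26a2* is a sulfate carrier, counted in the ion class by its family number. It was at 47.8, 54.5 and 50.4 with FL, against 34.2, 33.5 and 15.95 with control (0.92 ± 0.27, limma adjusted p = 0.0812).

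Across the 19 members of the ion class, 17 had a positive log2 fold change in WT cDC1s, with a median of 0.53, against −0.01 for all genes. *Slc4a1ap* and *Slc9a3r1*, which are counted in this class by their family number, are not carriers. *Slc26a2*, counted here in the same way, carries sulfate. In *Clec9a* gfp/gfp cDC1s 12 of the 19 were positive, with a median of 0.10, and the calls there were *Slc4a8*, higher, and *Slc9a7*, lower. Under column totals and upper-quartile scaling the WT median of the class was 0.65 and 0.52, and it was 0.31 without the 3 libraries that lay apart. In the cells without DNGR-1 the median was −0.01 when control 2 was left out and 0.04 when FL 3 was. The interaction was called for 0 of the 19 (0% of all genes).

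**Figure D2:**
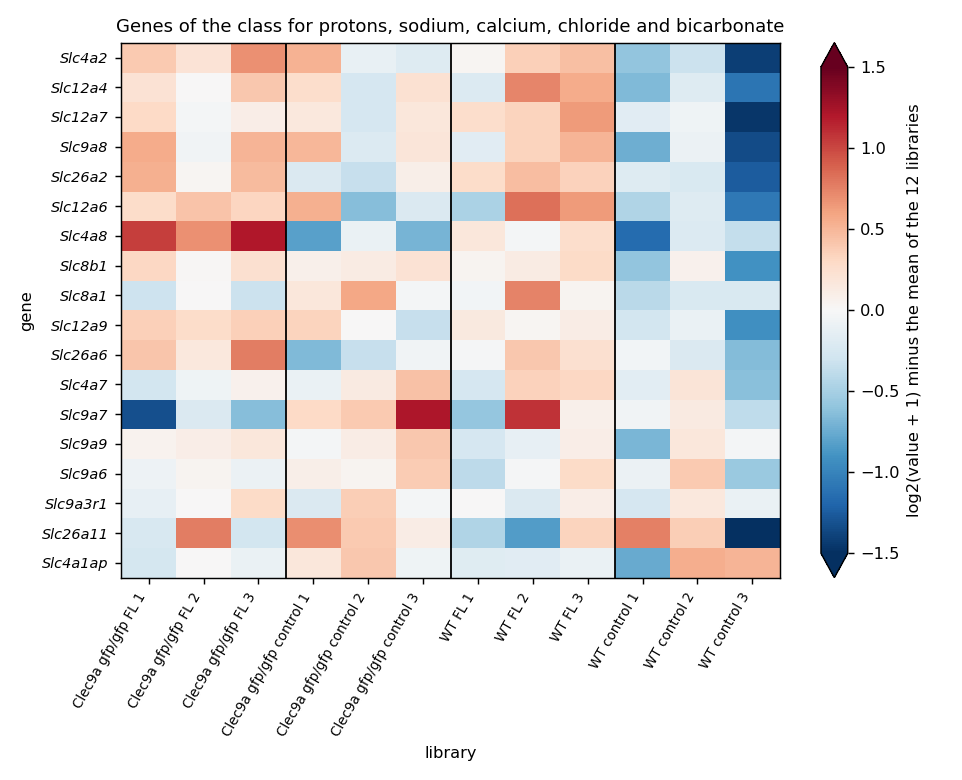
18 of the 19 genes of the class for protons, sodium, calcium, chloride and bicarbonate (rows, ordered by their log2 fold change between FL and control in WT) in the 12 libraries (columns, by group), colored by log2(value + 1) minus the gene's mean over the libraries. The colors end at 1.5 in either direction. WT control 3 is blue in most rows, with *Slc4a1ap* as an exception, and Slc4a8 is red in the 3 *Clec9a* gfp/gfp FL libraries.

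Without WT control 3, 0 members were called in WT cDC1s, the class median was 0.41, and the adjusted p of the 9 members ran between 0.296 and 0.402. Without WT FL 2 or WT FL 3, 0 members were called as well, and without WT control 2 there were 27 higher and 3 lower. Counts also fell without WT control 1, to 5, and without libraries of the other genotype, to 1 without *Clec9a* gfp/gfp FL 1, 2 without FL 2, 4 without control 2 and 5 without control 3. Without the 3 libraries that lay apart 0 were called, where the lone WT control library left is assumed to vary like the other groups.

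WT control 3 was the lowest library for 47 of the 143 members (32.9%), against 18.3% of all genes tested. WT control 1 was the lowest for 26 (18.2%), against 15.6%. The share of the signal in genes with at least 6000 bases of exon was 20.2% to 23.6% in WT FL libraries, against 18.6%, 19.2% and 15.4% in WT control libraries, and 21.8% to 22.7% in *Clec9a* gfp/gfp FL, against 21% to 23.3% in *Clec9a* gfp/gfp control libraries. The share in genes under 1500 bases was 8.43% to 12% in WT FL libraries, against 12.6%, 9.75% and 14.4% in WT control libraries. The 8 members that rose in WT had a median exon length of 7448 bases and all 604 genes that rose 6692, against 2431 for the 134 that fell, and *Slc25a5* has 1646. Gene length, RNA quality and FL cannot be told apart from these values, and the part of length in the calls was not tested.

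*Slc39a9*, a zinc carrier of the Golgi and plasma membrane, was at 34.5, 39.7 and 47.7 in WT FL libraries, against 22.2, 31.5 and 15.4 in WT control libraries (0.84 ± 0.25, limma adjusted p = 0.0867). It shares 459 exon bases with *Erh* on the opposite strand. *Slc35e2*, an orphan of the nucleotide sugar carrier family, was at 18.3, 21.2 and 25.5, against 15.1, 10.5 and 6.9 (0.99 ± 0.28, adjusted p = 0.0759). *Slc25a15*, the mitochondrial ornithine carrier of the urea cycle, was at 9.4, 10.5 and 11.6, against 3.8, 7.2 and 3.7 (1.01 ± 0.30, adjusted p = 0.0817). None of the 3 overlapped between WT FL and WT control, and in *Clec9a* gfp/gfp cDC1s their log2 fold changes were 0.20, −0.15 and −0.13, none called.

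*Slc25a5*, the most abundant member, fell in WT cDC1s to 804.8, 677.4 and 750.4 with FL, against 970, 983 and 1323 with control (−0.54 ± 0.17, limma adjusted p = 0.0971). In *Clec9a* gfp/gfp cDC1s it was 778, 736 and 682 with FL, against 890, 859 and 848 with control (−0.24, adjusted p = 0.54). In both genotypes the FL libraries lay below the control libraries. Its call in WT was kept in 1 of the 12 fits that left out a library, and was also lost with column totals.

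**Figure D3:**
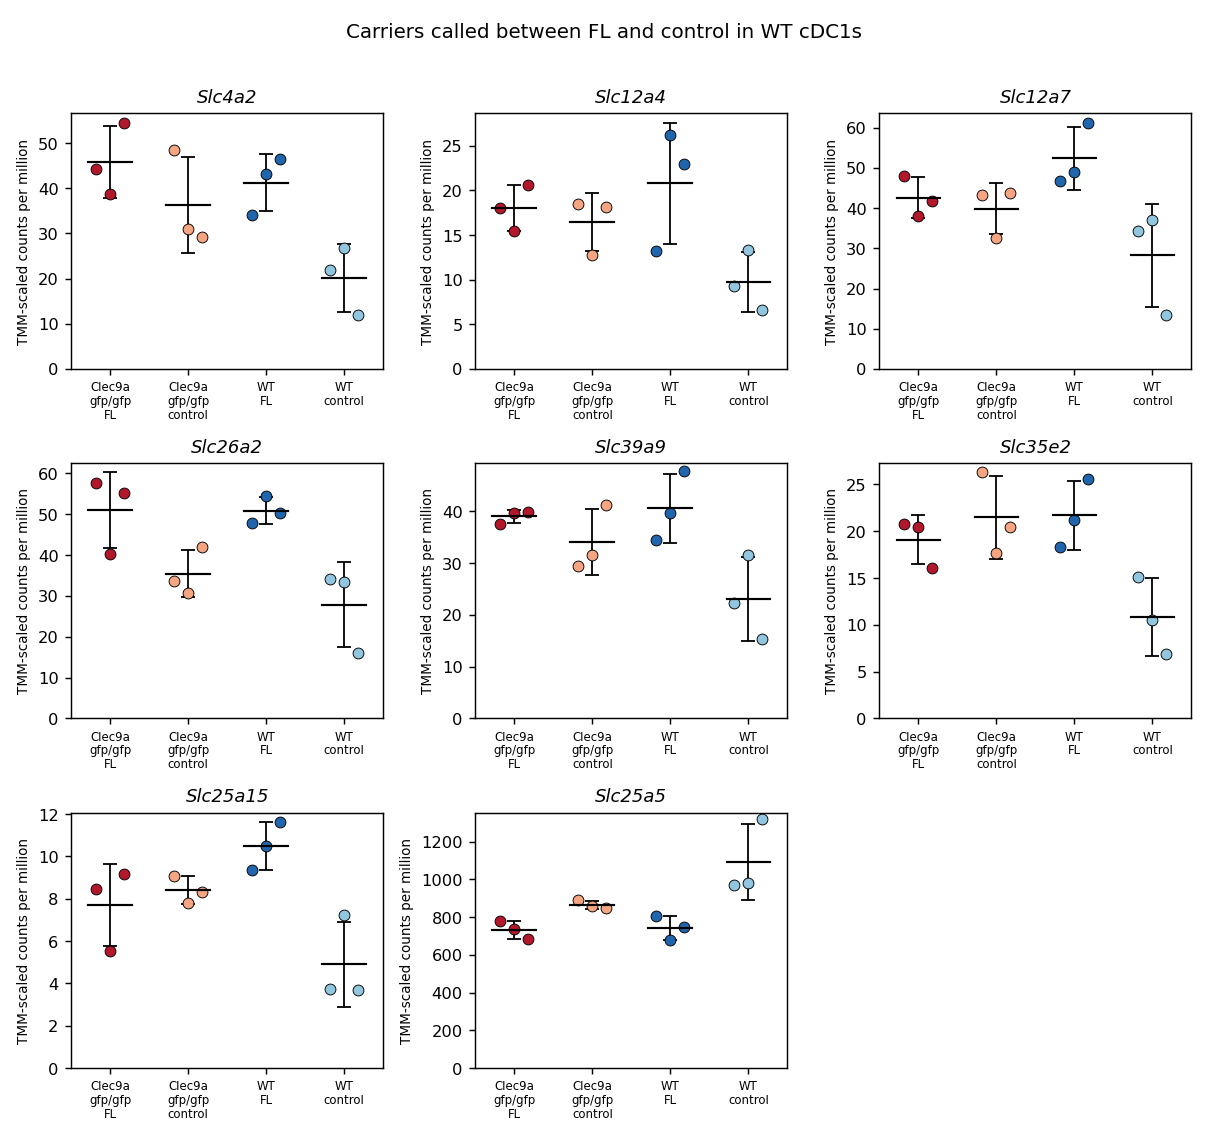
TMM-scaled CPM of 8 of the 9 carrier genes called between FL and control in WT cDC1s, 1 point per library, with the mean (line) and SD (bar) of 3 libraries in each of the 4 groups. The lowest WT control point of Slc4a2, at 11.9, is WT control 3, and for Slc25a5 all FL libraries lie below the control libraries of their genotype.

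No member was called in both genotypes in the same direction. With 9 calls in each genotype few shared calls could arise, and they were not counted over all genes. The absence of shared calls is therefore not a result about the carriers. In the interaction of genotype and FL 0 members were called, and limma called 0 of 11255 genes (0%). At an unadjusted p under 0.05 the interaction gave 1 member higher and 10 lower (7.69% of members). All genes gave 1027 (9.12%), which were not divided by direction. At an adjusted p under 0.1 limma-voom also called 0 members. The smallest p values on the negative side were those of *Slc25a1*, *Slc9a7*, *Slc25a32* and *Slc35e2*, at −0.94, −1.65, −1.12 and −1.14, and on the positive side those of *Slc44a1*, *Slc4a8*, *Slc25a4* and *Slc25a3*, at 1.38, 0.80, 0.40 and 0.42. The genotypes were therefore not shown to differ in their response for any member.

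**Figure D4:**
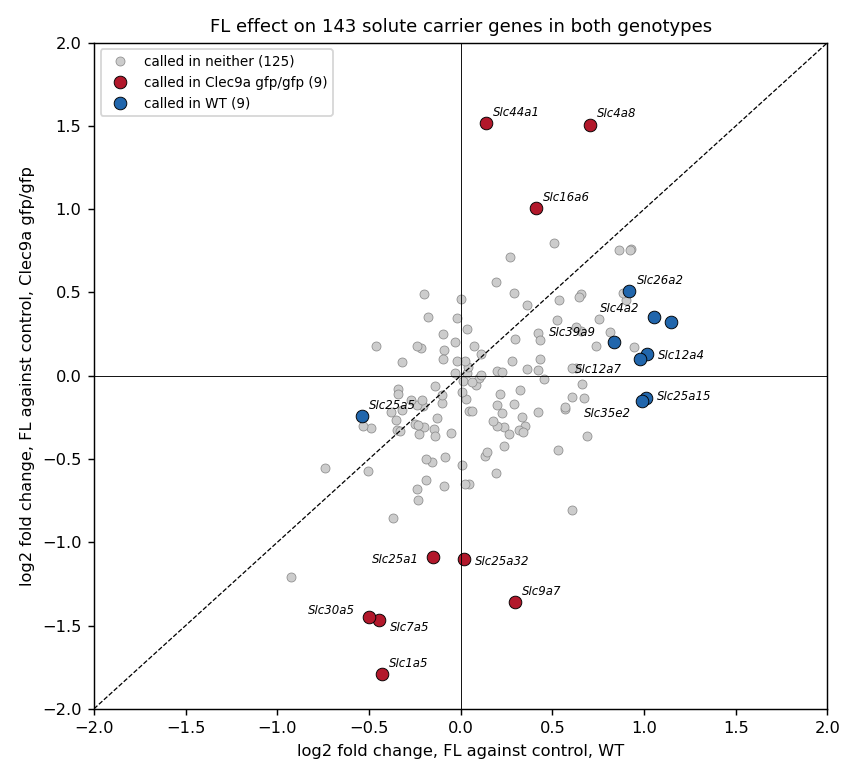
Log2 fold change of (value + 1) between FL and control in WT (x) and in *Clec9a* gfp/gfp cDC1s (y) for the 143 members, with those called in *Clec9a* gfp/gfp in red, those called in WT in blue and the line of equal change dashed. There are 9 red and 9 blue points, and the interaction was called for 0 of the 143 members. Slc4a2 lies at 1.06 and 0.35. Slc44a1, a member only through its *Clec9a* gfp/gfp FL libraries, lies at 0.14 and 1.52. 1 blue point carries no name.

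Averaged over both genotypes, 18 members rose with FL and 11 fell, or 12.6% and 7.69%, against 9.6% and 7.85% of all genes. Of the 19 members of the ion class 7 rose, with a median of 0.43. They included *Slc4a8* (1.11 ± 0.19, limma adjusted p = 0.00719), *Slc26a2* (0.71 ± 0.19, 0.029) and *Slc4a2* (0.70 ± 0.20, 0.0382), as well as *Slc26a6* (0.65), an anion exchanger whose groups are 10.5, 8.7 and 13.7 in *Clec9a* gfp/gfp FL against 4.5, 5.8 and 7.3 in *Clec9a* gfp/gfp control libraries. Of the 3 members of family 41, the magnesium carriers *Slc41a1* (0.81 ± 0.21, limma adjusted p = 0.0283) and *Slc41a2* (0.56) rose, and *Slc41a3* was at 0.00. Of the 9 members of zinc family 39, 3 rose, *Slc39a14* (0.84), *Slc39a3* (0.57) and *Slc39a9* (0.52), and the family's median was 0.06. Of the 5 members of zinc family 30, *Slc30a5* alone was called and fell by 0.98 ± 0.27 (limma adjusted p = 0.0332), with a family median of −0.25. Over the 14 zinc members the median was −0.15.

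*Slc41a1* was not called in either genotype alone. It was at 31.1, 36.1 and 71.2 in *Clec9a* gfp/gfp FL libraries, against 26.7, 27.7 and 21.4 in *Clec9a* gfp/gfp control libraries, and at 32.8, 27.9 and 33.4 in WT FL, against 18.2, 22.8 and 11.3 in WT control libraries. The groups did not overlap in either genotype. Mitochondrial carriers gave 1 higher, *Slc25a36* (0.69), which carries pyrimidine nucleotides, and 5 lower of 29. The 5 were *Slc25a1*, *Slc25a5*, *Slc25a16*, *Slc25a32* and *Slc25a39* (−0.61), which carries glutathione. The amino acid class gave 0 higher and 4 lower of 20: *Slc1a5*, *Slc7a5*, *Slc7a7* (−0.40), which exports basic amino acids, and *Slc43a3* (−0.65), whose known cargo is purine bases rather than amino acids. *Slc35b1*, which brings ATP into the endoplasmic reticulum, fell by 0.42 ± 0.12 (limma adjusted p = 0.0435), from libraries that did not overlap in either genotype. It was at 129, 125 and 115 in *Clec9a* gfp/gfp FL, against 152, 156 and 148 in *Clec9a* gfp/gfp control libraries.

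The average depended on single libraries. The count was 7 higher and 7 lower when *Clec9a* gfp/gfp FL 1 was left out, 4 and 3 for *Clec9a* gfp/gfp FL 3, 7 and 4 for *Clec9a* gfp/gfp control 2, 10 and 9 for WT FL 2, 9 and 6 for WT FL 3 and 6 and 5 for WT control 3. It was 0 with the 3 libraries that lay apart all left out. With column totals, 18 members were higher and 8 lower and all genes divided into 1224 and 593, against 1081 and 884. *Slc4a8*, *Slc25a1*, *Slc26a2*, *Slc30a5* and *Slc41a1* were called in all 12 fits that left out 1 library.

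**Figure D5:**
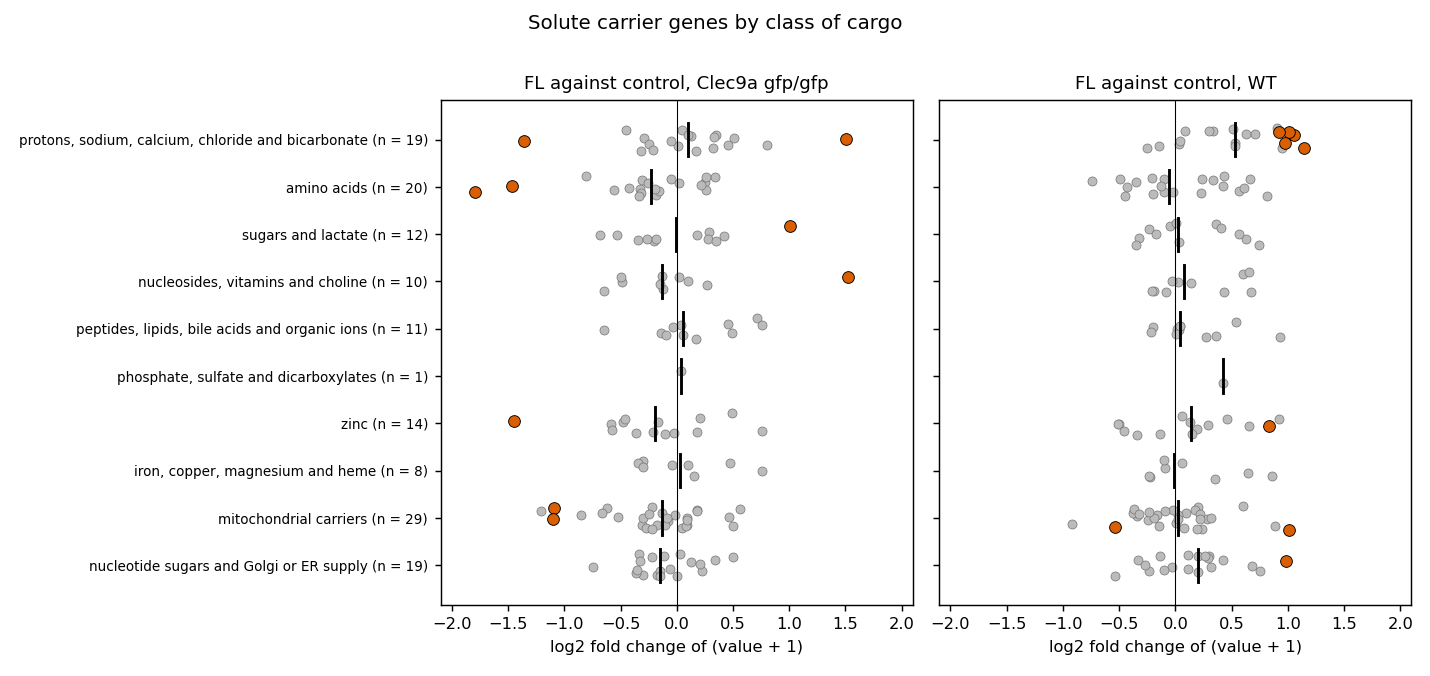
Log2 fold change of (value + 1) between FL and control for each member, by class of cargo, in *Clec9a* gfp/gfp (left) and in WT cDC1s (right). Orange points passed the test and black bars are class medians, which for the ion class are 0.10 in *Clec9a* gfp/gfp and 0.53 in WT.

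Between the genotypes no member was called. In control cDC1s, *Clec9a* gfp/gfp against WT, 0 of 143 members and 3 of 11255 genes (0.0267%) were called by limma, and limma-voom called 0 members. At an unadjusted p under 0.05, 20 members were higher and none was lower (14% of members, against 2211 genes or 19.6% of all in either direction). All genes were not divided by direction at this p, so the members' direction cannot be set against theirs. The members' median log2 fold change was 0.26, against 0.05 for all genes. The smallest p was that of *Slc35e2*, at 26.3, 17.7 and 20.4 in *Clec9a* gfp/gfp control libraries, against 15.1, 10.5 and 6.9 in WT control libraries (0.97 ± 0.28, limma adjusted p = 0.188). Named after their values were seen, the amino acid carriers *Slc38a7* (1.02), *Slc7a8* (0.84), *Slc36a4* (1.24) and *Slc38a2* (0.71) were among the 20, as were the ion carriers *Slc4a2* (0.85), *Slc8b1* (0.62) and *Slc9a8* (0.88). At an adjusted p under 0.1, leaving out WT control 2 called 26 members higher and 2 lower, beside 1337 genes higher and 998 lower. Leaving out WT control 3 called 0 members, with a members' median of 0.18. The median was 0.05 without the 3 libraries that lay apart, and 0 members were called.

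With FL, *Clec9a* gfp/gfp against WT, limma again called 0 members and 3 of 11255 genes (0.0267%). At an unadjusted p under 0.05, 2 members were higher and 5 lower (4.9% of members, against 431 genes or 3.83% of all in either direction), and limma-voom called 0. The 2 were *Slc4a8* (0.84 ± 0.27) and *Slc44a1* (1.05 ± 0.34), and the 5 were *Slc25a1* (−0.76 ± 0.21), *Slc25a32* (−0.75), *Slc9a7* (−0.92), *Slc25a39* (−0.59) and *Slc7a5* (−0.87). *Slc44a1* reached the level of a member only through these *Clec9a* gfp/gfp FL libraries. *Slc4a8* averaged 79.3 ± 14.1 in *Clec9a* gfp/gfp FL and 43.4 ± 4.57 in WT FL cDC1s (SD, n = 3 each). *Slc25a1* averaged 38.7 ± 8.15 and 65.6 ± 9.96. The libraries of both genes did not overlap between the genotypes, and the adjusted p was above 0.99 for both genes and for every other member.

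The comparison of *Clec9a* gfp/gfp FL cDC1s with those of WT control mice, in which genotype and plasmid differ together, called the most members, 26 higher (18.2%) and 9 lower (6.29%), against 12.8% and 9.85% of all genes. It shares its WT control libraries with the comparison of FL in WT and its *Clec9a* gfp/gfp FL libraries with that in *Clec9a* gfp/gfp. Of the 19 members of the ion class 9 rose, with a median of 0.69, and the largest change was that of *Slc4a8* (1.55 ± 0.27, limma adjusted p = 0.00813). Next by p were *Slc41a1* (1.31 ± 0.30, 0.0162), *Slc4a2* (1.201 ± 0.29), *Slc35f6* (0.95 ± 0.25), a lysosomal protein, *Slc41a2* (1.02), *Slc39a14* (1.22), *Slc44a1* (1.18), *Slc9a8* (1.05), *Slc26a2* (0.91) and *Slc16a6* (1.05). The 9 that fell were *Slc25a1* (−0.91 ± 0.21, limma adjusted p = 0.0168), *Slc25a39* (−0.96), *Slc7a5* (−1.32), *Slc25a5* (−0.56), *Slc30a5* (−1.21), *Slc35b1* (−0.53), *Slc25a16* (−1.40), *Slc1a5* (−1.34) and *Slc25a32* (−0.73).

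These counts were 1 higher and 1 lower when *Clec9a* gfp/gfp FL 3 was left out, 9 and 3 for *Clec9a* gfp/gfp FL 1, 4 and 1 for WT control 3, 17 and 6 for WT control 1 and 0 for the 3 libraries that lay apart together. With column totals, all genes divided into 1627 higher and 706 lower, against 1445 and 1109, and the members into 28 and 7.

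Many carriers of well-known function were not called in any comparison. *Slc2a1* averaged 84.9 over the 12 libraries, with log2 fold changes under FL of −0.20 in *Clec9a* gfp/gfp and −0.32 in WT cDC1s. *Slc16a1* and *Slc16a3*, which carry lactate, had −0.34 and 0.18 in *Clec9a* gfp/gfp and −0.05 and 0.74 in WT. *Slc6a6*, the taurine carrier, averaged 245 and had −0.42 and 0.24, *Slc46a3* had −0.50 and −0.19, and the iron carriers *Slc11a1* and *Slc11a2* had 0.15 and −0.30 in *Clec9a* gfp/gfp and −0.09 and 0.35 in WT. *Slc38a9*, the arginine sensor of the lysosome, had 0.02 and 0.23. Values that miss the threshold do not show that these genes were equal between the groups.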

How the data were processed

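RNA was sequenced from 12 libraries of sorted cDC1s, made with SMARTer and Nextera XT chemistry, which keeps no strand, in 61-base single reads. Per the labels and the paper's methods, the authors used CASAVA 1.8.2, cutadapt 1.3 (reads under 30 bases discarded) and RSEM 1.2.3 on the GRCm38 transcriptome, and TMM scaling in limma. The deposited signal values are TMM-scaled CPM, not raw counts. They equal a whole count plus 0.5 over the effective library size, within 0.02 counts for 100% of values, so library sizes were recovered from them.

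The test was limma 3.58.1 (R 4.3.3) on log2(value + 1), using its trend option and 1 mean per group, for 11255 genes with a mean of at least 1, in 7 comparisons. P values were adjusted by Benjamini-Hochberg over all genes, and an adjusted p under 0.1 was called. Depth was 3.06 to 25.9 M counts per library, which limits the low genes of the smallest library most. Replicates are pools of mice from 3 experiments, which no source ties to the replicate numbers, so p values measure the spread between pools.

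The members, classes and lists were chosen with earlier results of these data known. The members named are those called in the first 4 comparisons, the 10 with the smallest p in each direction in the averaged FL comparison and in *Clec9a* gfp/gfp FL against WT control, the 4 in each direction in the interaction, the 2 highest per kilobase in each class, and known carriers used as examples. Classes were assigned by family from general knowledge. The 4 members that are not carriers were counted in the class of the carrier they are named after. Promoter windows came from a RefSeq table on GRCm38.p6, and gene models from GENCODE on GRCm38. Alternatives changed the pseudocount, the low-value filter or the scaling, or used limma-voom on the recovered counts, quality weights, the replicate number as a block, the groups fitted alone and left out each library. The edgeR fit that had been planned was not run, because the recovery of whole reads did not pass for every library (4 of 12 had too few low values), and limma-voom was used instead. Some genes that were tested are counted in the totals but are not reported here by name.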

Additional observations from a re-analysis of the deposited data

How the results depend on the processing

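Of the 82 calls of single members in the comparisons described, 9 held in every fit that left out 1 library and 2 in every fit, and no direction turned. The counts of members called moved by more than 1.5 times as follows. In WT cDC1s, where 9 were called, FL against control gave 15 with column totals, 2 with quality weights, 0 with the groups fitted alone, 0 without the 3 libraries apart on the first component (a setting chosen after seeing the data), and 0 to 30 with 1 library left out. In *Clec9a* gfp/gfp cDC1s the 9 became 19 with quality weights, 2 without the 3 libraries and 2 to 10 with 1 library left out. The 29 of the averaged comparison became 0 and 7 to 40 under those 2 settings, and the 35 of *Clec9a* gfp/gfp FL against WT control became 0 and 2 to 50, and 23 with the groups fitted alone. In *Clec9a* gfp/gfp against WT control cDC1s the range was 0 to 28, and it was 0 to 0 with FL and for the interaction. The causes were not tested. Column totals moved the median of all genes in WT to 0.11, against −0.01.

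Same-numbered libraries did not consistently deviate together. Over 18 pairs the correlation was −0.217 to 0.339, with a median of 0.021, and 5 were over 0.1. Over the 36 pairs of other numbers it was −0.3 to 0.447, with a median of −0.02, and 7 were over 0.1. WT FL 1, *Clec9a* gfp/gfp control 1 and WT control 1 did correlate, at 0.339, 0.317 and 0.166. Not every library correlated best with its own number. These values do not settle whether the numbers follow the experiments. The study made 3 experiments, but no source ties the numbers to them, and the libraries were not treated as pairs. With the replicate block, 4 members were called in WT cDC1s (9 without it), and the other counts stayed within 1.5 times. The planned edgeR fit was not run, and limma-voom on the recovered counts took its place. Depth limits the members near 5 in *Clec9a* gfp/gfp control 3, at 3.06 M counts.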

Other observations

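The 29 solute carrier genes under the level of 5 were all tested in the same fit. With FL averaged over both genotypes 4 rose and 0 fell, against 9.6% of all genes called higher: *Slc25a29*, a mitochondrial carrier of basic amino acids, *Slc5a3*, the sodium-dependent inositol carrier, *Slc12a3*, a sodium/chloride cotransporter, and *Slc5a6*, the sodium-dependent multivitamin carrier. They are low, and were chosen here because they passed the test. With the 3 libraries that lay apart left out, 0 of the 29 were called. *Slc25a29* was at 6.22, 6.77 and 10.5 in *Clec9a* gfp/gfp FL libraries, against 1.90, 3.73 and 2.45 in *Clec9a* gfp/gfp control libraries, and the libraries did not overlap (log2 fold change 1.26 ± 0.32, limma adjusted p = 0.0448). In WT it was at 5.66, 4.10 and 3.83 with FL, against 2.36, 2.11 and 2.39 with control, again without overlap (0.74 ± 0.32, adjusted p = 0.19). In WT cDC1s the single call among the 29 was *Slc25a42*, a mitochondrial coenzyme A carrier, at 2.22, 4.02 and 2.48 with FL, against 0.204, 0.587 and 0.311 with control (1.496 ± 0.44, limma adjusted p = 0.0812). Its interaction of −1.46 had an adjusted p of 0.52.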
